A study of Mus musculus with 12 samples.

Results

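The amyloid precursor family and its secretases were followed here as 9 genes taken by name from a list: the precursors App, Aplp1 and Aplp2, the beta-site proteases Bace1 and Bace2, and the gamma-secretase genes Psen2, Ncstn, Aph1a and Psenen. All 9 were found among the 30165 genes of the OPC table and among the 17918 genes of the neuron table, where 27 of 66298 transcripts belonged to them. The list was set by symbol, by a rule that uses no measured value, although earlier results of these data were known when it was chosen.

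In the OPC table, whose positions are given as deposited and whose build the labels name as mm39, the protein-coding precursor genes were App (ENSMUSG00000022892, chr16:84746573-84970654, minus strand), Aplp1 (ENSMUSG00000006651, chr7:30134407-30144960, minus) and Aplp2 (ENSMUSG00000031996, chr9:31060853-31123111, minus). The beta-site proteases were Bace1 (ENSMUSG00000032086, chr9:45749878-45775697, plus) and Bace2 (ENSMUSG00000040605, chr16:97157942-97244136, plus). The gamma-secretase genes were Psen2 (ENSMUSG00000010609, chr1:180054569-180091003, minus), Ncstn (ENSMUSG00000003458, chr1:171893580-171910362, minus), Aph1a (ENSMUSG00000015750, chr3:95801281-95805600, plus) and Psenen (ENSMUSG00000036835, chr7:30261288-30263052, minus).

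App, amyloid precursor protein, is a membrane protein with a large part outside the cell. An alpha-secretase (such as Adam10) cuts it within the amyloid-beta sequence, whereas Bace1 cuts it at the start of that sequence and leaves a stub in the membrane. The gamma-secretase complex then cuts the stub inside the membrane and frees amyloid-beta. A presenilin such as Psen2 holds the active site of this complex, Ncstn (nicastrin) is its large glycoprotein subunit, Aph1a is its scaffold, and Psenen (Pen-2) is needed for the presenilin to mature. Aplp1 and Aplp2 are close relatives of App that are cut by the same classes of protease but hold no amyloid-beta sequence. Bace2 is a relative of Bace1 that cuts App mostly at other sites.

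RNA was sequenced from OPCs (oligodendrocyte precursor cells) and neurons sorted with magnetic beads from the cortex of mice, with 3 ctl and 3 dKO libraries per cell type, each made from 2 mice. The dKO mice carried NG2-CreERT2, a tamoxifen-dependent Cre under the control of NG2, together with floxed alleles of both Cav1.2 (Cacna1c, exons 14 and 15) and Cav1.3 (Cacna1d, exon 2), the pores of L-type calcium channels. Tamoxifen was given at 100 mg/kg on postnatal days 7 and 8. The ctl libraries are labelled WT, and whether these mice carried Cre or floxed alleles, or received tamoxifen, is not given in the sources used here. The deletion was aimed at NG2-expressing cells, so the neurons of dKO mice were not themselves the target, although pericytes also express NG2. OPCs were taken by positive selection with CD140, NG2 and O4 beads and neurons by removal of cells that carry ACSA-2, CD31, CD11b or O4. The age of the mice at sorting is not given in the sources used here, and the sexes were pooled. Most lines of the study were kept on C57BL/6N.

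OPC libraries held 14935963 to 19812274 counts and neuron libraries 15052901 to 16344585. In the OPC fraction, the targeted Cacna1c had normalized counts of 364, 411 and 439 in ctl and 257, 336 and 316 in dKO libraries, with no overlap, and Cacna1d had 245, 191 and 255 against 94.6, 153 and 235, with overlap (adjusted p = 0.349 and 0.531, edgeR). Gene counts include reads outside the deleted exons, so these values do not measure the deletion itself. A normalized count is a count divided by the library's effective size relative to the mean of the 6 libraries. The markers of the fractions went partly against their names. In the OPC fraction the OPC markers summed to 1842 to 3604 CPM (counts scaled by the library total), whereas the markers of mature oligodendrocytes summed to 52570 to 82104 CPM, with Mbp alone at 19210 to 35310 CPM and Pdgfra at 44.1 to 181 CPM. In the neuron fraction the neuron markers summed to 778 to 1792 CPM and the endothelial markers to 10661 to 21782 CPM, with Snap25 at 74.3 to 337 CPM and Cldn5 at 931 to 1970.0 CPM. The red blood cell markers of that fraction summed to 10321, 28071 and 43319 CPM in ctl and 69271, 25323 and 16327 CPM in dKO libraries, above the endothelial sum in 4 of the 6. Every marker on the 9 lists was above 0 in every library, Rbfox3, Tmem119 and Aqp4 included. The term fraction is therefore used below. In such bulk libraries, fewer cells of a type and less RNA per cell cannot be told apart.

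Some libraries stood apart. In the neuron fraction, dKO replicate 1 had the lowest endothelial sum (10661 CPM, against 18351 to 21782 in the other 5), the highest neuron sum (1792 CPM), the highest choroid plexus sum (32099 CPM, against 4848 to 15212) and the highest red blood cell sum (69271 CPM, against 10321 to 43319). In the OPC fraction, dKO replicate 2 had the highest astrocyte sum (5595 CPM, against 1212 to 3194), and dKO replicate 3 the lowest oligodendrocyte sum.

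Splice forms of App and Aplp2 could be read from the neuron table, which lists RefSeq transcripts. App is assembled with or without 3 short coding exons. The 168-base exon encodes a Kunitz protease inhibitor domain (KPI), the 57-base exon follows it, and the 54-base exon lies nearer to the amyloid-beta sequence. In brain, neurons are known for the form with neither the 168-base nor the 57-base exon, of 695 residues, whereas other cells make more of the KPI forms, and forms without the 54-base exon are known from microglia and many cells outside the nervous system. Aplp2 holds a KPI exon of its own, also of 168 bases. These exons are shown because the forms counted below differ by them. They were read from GENCODE M21 transcripts on GRCm38, on the minus strand, 5′ to 3′, at chr16:85043576-85043743 (App, 168 bases), chr9:31167561-31167728 (Aplp2, 168 bases), chr16:85040251-85040307 (App, 57 bases) and chr16:84971408-84971461 (App, 54 bases), each an internal coding exon. In the first and second sequence, capitals mark the bases that are identical at the same position of both KPI exons.
App 168-base KPI exon: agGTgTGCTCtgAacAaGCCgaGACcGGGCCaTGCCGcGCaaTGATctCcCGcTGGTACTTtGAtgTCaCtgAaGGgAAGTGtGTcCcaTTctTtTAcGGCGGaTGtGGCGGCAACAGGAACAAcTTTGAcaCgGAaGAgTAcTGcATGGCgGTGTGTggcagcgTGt
Aplp2 168-base KPI exon: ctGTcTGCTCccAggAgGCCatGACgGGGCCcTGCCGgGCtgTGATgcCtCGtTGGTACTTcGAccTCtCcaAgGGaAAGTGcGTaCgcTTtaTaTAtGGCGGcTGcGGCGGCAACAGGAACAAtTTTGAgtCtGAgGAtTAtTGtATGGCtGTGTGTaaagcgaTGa
App 57-base exon: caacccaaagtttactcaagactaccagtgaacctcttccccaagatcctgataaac
App 54-base exon: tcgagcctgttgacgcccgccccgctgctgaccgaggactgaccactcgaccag
The KPI exons of App and Aplp2 were identical at 114 of 168 bases (67.9%). The joins below are what separates the 695-residue form of App from the KPI forms. Each shows the last 15 bases of the shared upstream exon in lower case and the first 15 bases of the next exon in capitals.
App join that skips the 168-base and 57-base exons: aggaggtggtccgagTTCCCACGACAGCAG
App join into the 168-base exon: aggaggtggtccgagAGGTGTGCTCTGAAC

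App RNA of the neuron fraction was mostly of the KPI kind. The 4 RefSeq forms with the 168-base exon together took 77.5%, 77.4% and 81.2% of the App estimated counts in ctl and 66.0%, 79.1% and 79.6% in dKO libraries. The 695-residue form, which lacks it, took 21.8%, 22.0% and 18.5% in ctl and 33.1%, 20.3% and 20.1% in dKO libraries. The highest share was that of dKO replicate 1, the library with the highest neuron marker sum and the lowest endothelial sum, and the groups overlapped. The part of cell makeup in these shares was not tested. Forms without the 54-base exon, of 733 and 752 residues, held 57.6% ± 2.47 (SD, n = 3) of App counts in ctl and 53.3% ± 3.75 (SD, n = 3) in dKO libraries. The remaining KPI forms, of 770 and 751 residues, averaged 10.1% and 11.2% over the 6 libraries, and the 3 model transcripts of App together held at most 0.877% in any library. The forms share most of their sequence, so that these shares depend on how shared reads were divided and are not counts of reads over the joins.

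The 733-residue form of App, with the 168-base exon but neither of the other 2, took 28.4%, 28.3% and 29.1% of App counts in ctl and 25.1%, 26.1% and 26.7% in dKO libraries. All 3 dKO shares lay below all 3 ctl shares, with mean shares of 28.6% and 26.0%. The difference had an exact permutation p of 0.1 (two-sided, 3 against 3), the smallest that this design allows, and an adjusted p = 0.275 over the 11 transcripts tested. For the 695-residue form the mean difference was 3.70 percentage points higher in dKO (exact permutation p = 0.7), and without dKO replicate 1 it was -0.607 percentage points.

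The KPI form of Aplp2 was 1 of 8 forms of App and Aplp2 that averaged at least 5% of their gene's counts over the 6 libraries. It reached this share through the dKO libraries, since all 3 ctl libraries were under it, so its place among the 8 forms is not read as a result. Its estimated counts were 582, 705 and 787 in ctl and 1387, 2609 and 1356 in dKO libraries. As a share of Aplp2 counts this was 2.89%, 3.29% and 4.21% in ctl (mean 3.46% ± 0.678, SD, n = 3) and 11.5%, 12.3% and 6.42% in dKO libraries (10.1% ± 3.18, SD, n = 3). The groups did not overlap, and the exact permutation p was 0.1 (two-sided), the smallest possible, with adjusted p = 0.275. Without each library in turn the mean difference of 6.60 percentage points ranged from 5.50 to 8.42. Both other forms of Aplp2 held smaller shares in dKO. The 695-residue form without the exon held 62.7% in ctl and 59.0% in dKO, and a model transcript held 33.9% and 30.9%. These shares did not overlap between the groups (exact permutation p = 0.1 for both). The shares of a gene's forms add up to the whole in each library, so a higher KPI share lowers the others jointly. The lower shares are therefore not separate results. In normalized counts the groups overlapped for both of these forms.

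A fit across the 40070 neuron transcripts that averaged 10 or more normalized counts was added after these shares had been seen. It gave the KPI form of Aplp2 a log2 fold change of 1.31 ± 0.27 (SE), 2.47-fold higher in dKO, with an unadjusted p of 0.00273 in edgeR. Over all transcripts 4.60% had an unadjusted p under 0.05 and 11.5% had groups that did not overlap. The adjusted p was 1.00 (0.999791) in edgeR and 0.000561 in DESeq2, so that the call depends on the tool. In simulated data, edgeR called 5 of 100 transcripts changed by a log2 fold of 2 and 0 of 100 changed by 1. With all libraries, none of the other 7 forms had an unadjusted p under 0.05 in edgeR. The smallest was that of the 733-residue form of App (log2 fold change -0.42 ± 0.21, SE). The KPI form of Aplp2 was listed through its dKO shares, so its contrast with the other 7 is not read as a result. Without dKO replicate 3 the 770-residue form of App had a log2 fold change of -0.85 (unadjusted p = 0.00647, edgeR). The model transcript of Aplp2 then had -0.55 (unadjusted p = 0.0390, edgeR). Choroid plexus markers, which vary in these libraries, summed to 9641, 8965 and 4848 CPM in ctl and 32099, 8896 and 15212 CPM in dKO libraries, with overlap. The endothelial sum was 20265 to 21782 CPM in ctl and 10661 to 18379 CPM in dKO, and the neuron sum 778 to 1075 and 1088 to 1792 CPM, both without overlap. The part of cell makeup in the Aplp2 result was not tested.

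**Figure D1:**
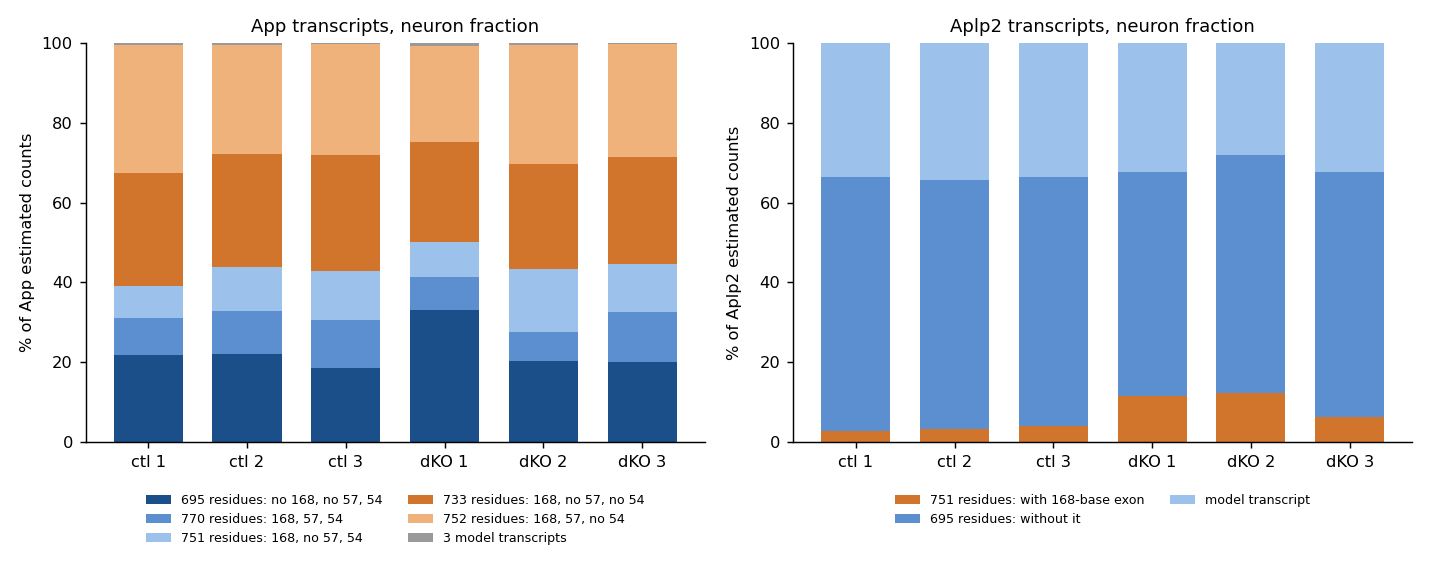
Stacked bars give the share, in % of the gene's estimated counts, of each transcript of App (left) and Aplp2 (right) in the 3 ctl and 3 dKO neuron libraries, with forms named by residues and by the exons they hold (168, 57 and 54 bases). The form of App without the 168-base exon reaches 33.1% in dKO replicate 1 and 18.5% to 22.0% in the other libraries, and the Aplp2 RefSeq form with its 168-base exon takes 2.89% to 4.21% in ctl and 6.42% to 12.3% in dKO libraries. Whether the model transcript of Aplp2 holds that exon is not known here.

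Levels per length gave a different leader in each fraction. Aplp1 was highest in the OPC fraction, with deposited FPKM (a level per kilobase, scaled by depth) of 972, 1351 and 1106 in ctl and 1185, 962 and 771 in dKO libraries. App followed with 196, 228 and 199 FPKM in ctl and 235, 191 and 181 in dKO, and Aplp2 with 151, 156 and 145 in ctl and 162, 139 and 149 in dKO. The ctl ranges of these 3 genes did not overlap. Psenen came next at 34.8 ± 3.31 FPKM (SD, n = 3 ctl), followed by Bace1 at 23.3 ± 4.72, Ncstn at 20.7 ± 1.96 and Aph1a at 20.3 ± 1.71. Bace1 and Ncstn, and Ncstn and Aph1a, did not differ beyond their spread. Psen2 stood at 6.34 ± 0.510 and Bace2, the lowest, at 1.79 ± 0.435 FPKM.

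The size of the gap between Aplp1 and App depended on the gene length. The OPC table gives App a length of 12996 bases, 4.09 times its main GENCODE transcript of 3176 bases, whereas for Aplp1 the ratio was 1.29. With FPKM, Aplp1 was 5.51 times App in ctl. Per kilobase of the main transcript, an alternative chosen after the lengths had been seen, it was 1.73 times App (1481 ± 213 against 856 ± 50.1 CPM per kilobase, SD, n = 3), still without overlap. On that scale Bace1 fell from the fifth to the seventh place, level with Aph1a (24.6 CPM per kilobase each), and the order of the other genes that had stood apart was kept.

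App was highest in the neuron fraction, with deposited TPM (a level per length, summed over the transcripts of a gene) of 1044, 901 and 851 in ctl and 441, 928 and 938 in dKO libraries. Aplp2 followed with 683, 676 and 589 in ctl and 300.5, 685 and 737 in dKO. Both were lowest in dKO replicate 1, the library poor in endothelial markers. Psenen came next at 185 ± 17.2 TPM (SD, n = 3 ctl). Aplp1 and Ncstn, at 113 ± 43.9 and 92.1 ± 5.82 TPM, did not differ beyond their spread, nor did Aph1a and Psen2, at 20.1 ± 3.69 and 16.4 ± 4.28 TPM. Bace1 had 8.29 ± 0.10 TPM and Bace2 4.79 ± 2.92 TPM. The Bace2 value rests mostly on a short model transcript, which took 56.9% to 80.8% of its estimated counts and weighs more per length than the RefSeq form.

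Set side by side, the fractions differed in the makeup of the precursor family. Aplp1 took 41.9% to 51.3% of the counts of the 3 precursors in the OPC fraction and 3.07% to 11.8% in the neuron fraction, whereas Aplp2 took 11.5% to 15.8% and 37.7% to 43.8%. App took 37.2% to 42.3% in OPC and 50.5% to 55.3% in neuron libraries. The precursors together made up 0.594% to 0.779% of all counts in OPC and 0.206% to 0.337% in neuron libraries, the beta-site proteases 0.0126% to 0.0191% and 0.00225% to 0.00288%, and the 4 gamma-secretase genes 0.0216% to 0.0231% and 0.0224% to 0.0261%. The tables were counted in different ways, so these shares stand beside each other without a test. Summed over its genes, the beta-site group thus held the fewest counts of the 3 groups in either fraction. These sums are scaled neither by length nor by the number of genes, 2 against 4 for gamma-secretase. In the OPC fraction Bace1 alone had a ctl mean of 149 CPM, above each of the 4 gamma-secretase genes (27.7 to 83.1 CPM).

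**Figure D2:**
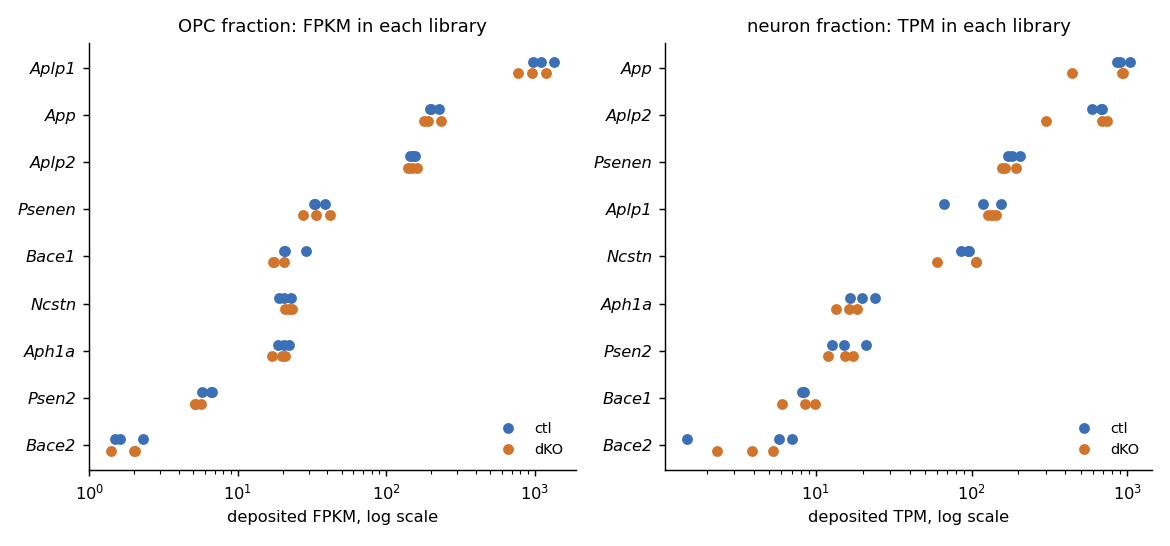
Each point is a library, ctl above and dKO below the line of its gene, at its deposited FPKM in the OPC fraction (left) or summed TPM in the neuron fraction (right), on log axes, with genes ordered by the ctl mean. Aplp1 leads in the OPC fraction and App in the neuron fraction, Bace2 is last in both, and dKO replicate 1 of the neuron fraction is the single low point of App (441 TPM) and Aplp2 (300.5 TPM).

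The comparison of dKO with ctl asked whether loss of the L-type channels in NG2-expressing cells changed these genes in the targeted cells or in the neurons around them. All 9 genes passed the filter on low counts in both fractions. In the OPC fraction 0 of 9 had an adjusted p under 0.05 (quasi-likelihood test of edgeR, Benjamini-Hochberg adjusted over 17364 genes). Among all genes tested 0.00576% did, that is 1 gene, or 199 genes without dKO replicate 2 and 293 in DESeq2. In the same fraction 0 of 9 had an unadjusted p under 0.05, against 11.5% of all genes. That count was 2 (Bace1 and Psen2) without ctl replicate 3, 1 (Bace1) without ctl replicate 1 or dKO replicate 1, and 1 (Psen2) without dKO replicate 3. Over all OPC genes 2003 had an unadjusted p under 0.05, and 1106 without ctl replicate 2. In the neuron fraction the counts were again 0 of 9 at an adjusted and 0 of 9 at an unadjusted p under 0.05, against 0% and 9.0% of the 14352 genes tested (0 and 1292 genes in edgeR, the latter 780 without ctl replicate 1, and 88 genes at an adjusted p under 0.05 in DESeq2). DESeq2 also placed 0 of 9 under either threshold in both fractions. The normalized counts of ctl and dKO did not overlap for 1 of 9 genes in the OPC fraction, against 16.4% of all genes, and for 2 of 9 in the neuron fraction, against 15.3%. The median log2 fold change of the 9 genes was -0.04 in OPC and -0.11 in neuron libraries, beside 0.01 over all genes in each. Standard errors were 0.11 to 0.23 on the log2 scale in OPC and 0.14 to 0.47 in neuron libraries. In simulated data of this size, edgeR called 97 of 100 changed genes for OPC and 91 of 100 for neuron libraries where the log2 fold was 2, and 68 and 44 of 100 where it was 1.

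Of the precursors, App had normalized counts of 44262, 51619 and 45503 in ctl and 54299, 43799.5 and 41974 in dKO OPC libraries (log2 fold change -0.04 ± 0.19, SE, adjusted p = 0.957). The highest and the lowest of the 6 values were both dKO. Aplp1 had 50877, 71112 and 58743 in ctl and 63435, 51116 and 41524 in dKO libraries (-0.23 ± 0.23, adjusted p = 0.729). It was lowest in dKO replicate 3, where the oligodendrocyte markers were also lowest (52570 CPM, against 67918 to 82104 in the other 5), and its log2 fold change was -0.10 without that library and also without ctl replicate 2, its highest, and -0.39 without dKO replicate 1. Aplp2 was the steadiest of the family, with 15368, 15949.6 and 15039 in ctl and 16852, 14411 and 15636 in dKO libraries (-0.01 ± 0.14, adjusted p = 0.989). The groups overlapped for all 3 precursors in the OPC fraction.

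App of the neuron fraction had normalized counts of 28776, 25676 and 26631 in ctl and 15661, 24941 and 25525 in dKO libraries. All 3 dKO values lay below the ctl values, dKO replicates 2 and 3 only narrowly, and the difference did not pass the test (log2 fold change -0.29 ± 0.21, SE, adjusted p = 0.705). The groups overlapped in CPM (1622 to 1857 in ctl and 1039.8 to 1642 in dKO) and in TPM, so that their separation depends on the scaling. Without dKO replicate 1 the log2 fold change was -0.10. The endothelial marker sum, which was 20265 to 21782 CPM in ctl and 10661 to 18379 CPM in dKO, was lower in dKO without overlap too, and the neuron marker sum was 778 to 1075 CPM in ctl and 1088 to 1792 CPM in dKO. Their part in the App values was not tested. Aplp2 had 20477, 20936 and 20016 in ctl and 11693, 20089.7 and 21814 in dKO libraries (-0.20 ± 0.23, adjusted p = 0.823), and without dKO replicate 1 its log2 fold change was 0.03. Aplp1 had 3018, 2392 and 1476 in ctl and 3667, 2578 and 2454 in dKO libraries (0.34 ± 0.27, adjusted p = 0.727), and it was highest in dKO replicate 1, where App and Aplp2 were lowest. Without dKO replicate 1 its log2 fold change was 0.13, and without ctl replicate 3, its lowest library, 0.11.

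**Figure D3:**
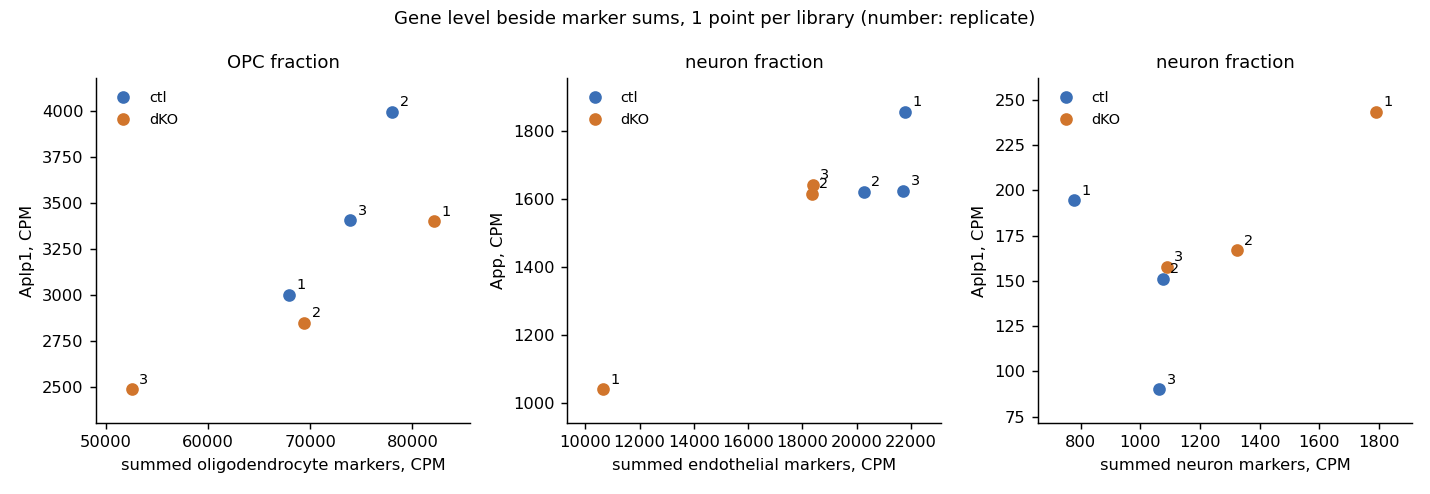
Each point is a library, with its replicate number: Aplp1 in CPM against the sum of the oligodendrocyte markers in the OPC fraction (left), and App against the endothelial markers (middle) and Aplp1 against the neuron markers (right) in the neuron fraction. The dKO replicate 1 of the neuron fraction lies apart with an endothelial sum of 10661 CPM and the lowest App value, and dKO replicate 3 of the OPC fraction has the lowest oligodendrocyte sum and the lowest Aplp1 value.

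Bace1, the protease that starts the release of amyloid-beta, came nearest to the threshold of the 9 genes in the OPC fraction. Its normalized counts were 2240.2, 3188 and 2336 in ctl and 2304, 1969.9 and 1968 in dKO libraries. The dKO values were lower by 20.9% in the fitted mean (log2 fold change -0.34 ± 0.15, SE, unadjusted p = 0.0538, adjusted p = 0.443, edgeR), but dKO replicate 1 lay above ctl replicate 1. Of all genes tested, 12.1% had a smaller p. The difference leaned on ctl replicate 2, without which the log2 fold change was -0.17. Neuron libraries had Bace1 counts of 305, 313 and 334 in ctl and 283, 351 and 304 in dKO libraries (-0.02 ± 0.17, adjusted p = 0.984). Bace2 was low in both fractions, with 196 to 318 normalized counts in OPC libraries (0.02 ± 0.22, adjusted p = 0.986) and 34.3 to 114 in neuron libraries (-0.19 ± 0.47, adjusted p = 0.929). Its lowest neuron library, ctl replicate 3, was also lowest in the sums of oligodendrocyte (749 CPM, against 1231 to 4191), OPC (125 CPM, against 187 to 295), pericyte (565 CPM, against 836 to 1359) and choroid plexus markers (4848 CPM, against 8896 to 32099), and their part was not tested.

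Psen2 was the member whose OPC groups did not overlap in normalized counts. It had normalized counts of 503, 497 and 439 in ctl and 393, 392 and 435 in dKO libraries, with ctl replicate 3 and dKO replicate 3 almost level. In CPM the groups overlapped (25.5 to 29.7 in ctl and 21.1 to 26.1 in dKO), whereas in FPKM they did not. The difference did not pass the test (log2 fold change -0.26 ± 0.12, SE, unadjusted p = 0.0602, adjusted p = 0.454, edgeR). Its neuron values were 339, 253 and 232 in ctl and 247, 242 and 274 in dKO libraries, with overlap (-0.11 ± 0.21, adjusted p = 0.902). Ncstn had 1570.1, 1423 and 1319 in ctl and 1558, 1449.6 and 1652 in dKO OPC libraries (0.09 ± 0.11, adjusted p = 0.806), and 2288, 2344 and 2311 against 1860.0, 2492 and 2520.2 in neuron libraries (-0.01 ± 0.15, adjusted p = 0.988).

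Aph1a, the scaffold subunit, was the other member of the neuron fraction, besides App, whose groups did not overlap in normalized counts. They overlapped in CPM (30.0 to 40.4 in ctl and 27.3 to 30.8 in dKO) and in TPM (16.6 to 24.0 and 13.5 to 18.5). It had 627, 543 and 493 in ctl and 464, 473 and 424 in dKO neuron libraries (log2 fold change -0.28 ± 0.16, SE, adjusted p = 0.611), and without each library in turn the log2 fold change ranged from -0.36 to -0.19. Its RefSeq form of 247 residues took 67.7% to 82.1% of its counts in ctl and 75.0% to 81.1% in dKO libraries, the remainder being the form of 265 residues. OPC libraries had Aph1a counts of 1110.2, 1321 and 1237 in ctl and 1219.7, 1271 and 1052 in dKO libraries (-0.07 ± 0.11, adjusted p = 0.848). Psenen had 621 to 939 normalized counts in OPC and 626 to 798 in neuron libraries (-0.03 ± 0.16 and -0.08 ± 0.14, adjusted p = 0.960 and 0.894), with overlap in both.

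**Figure D4:**
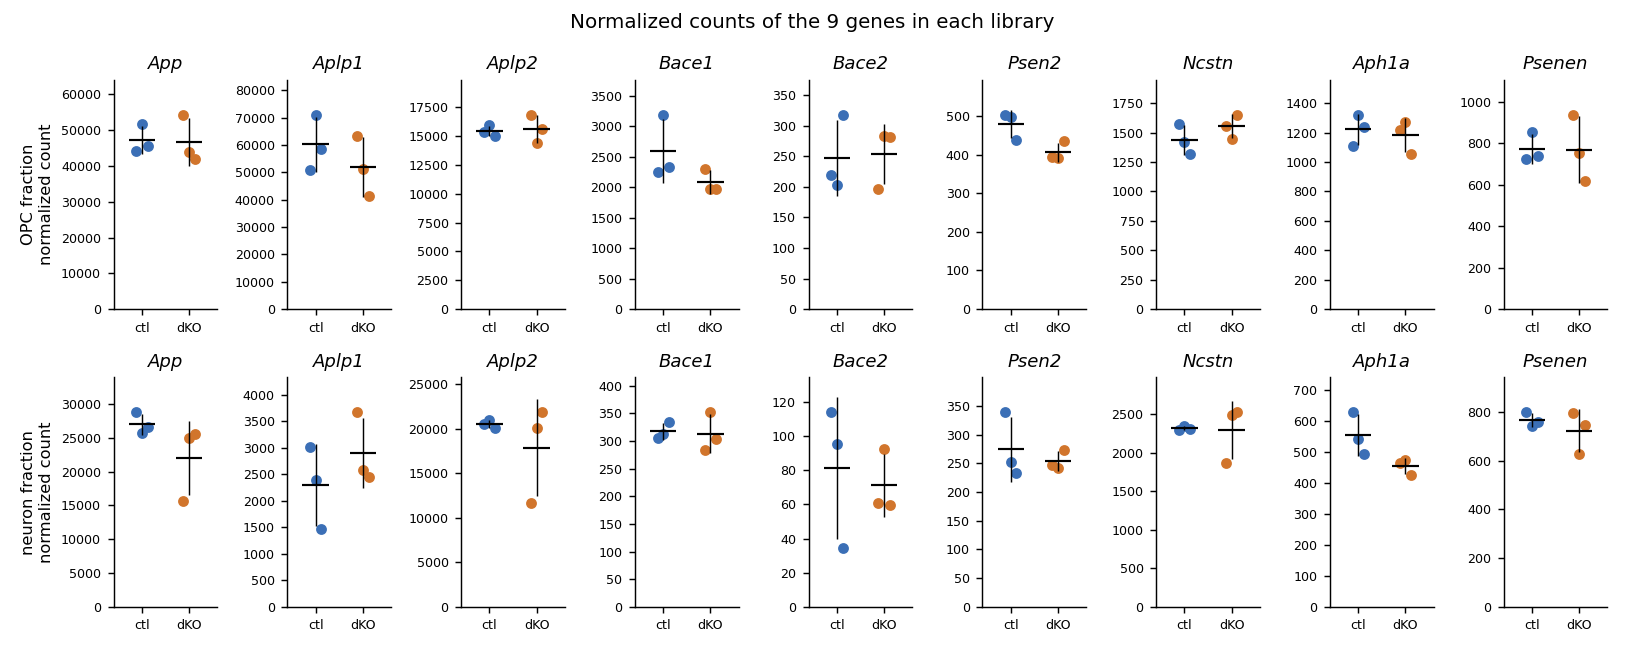
Points are normalized counts of the 9 genes in the 3 ctl (blue) and 3 dKO (orange) libraries of the OPC fraction (upper row) and the neuron fraction (lower row), bars are means ± SD, and each axis starts at 0. The groups do not overlap for Psen2 in the OPC fraction (439 to 503 against 392 to 435) and for App and Aph1a in the neuron fraction.

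**Figure D5:**
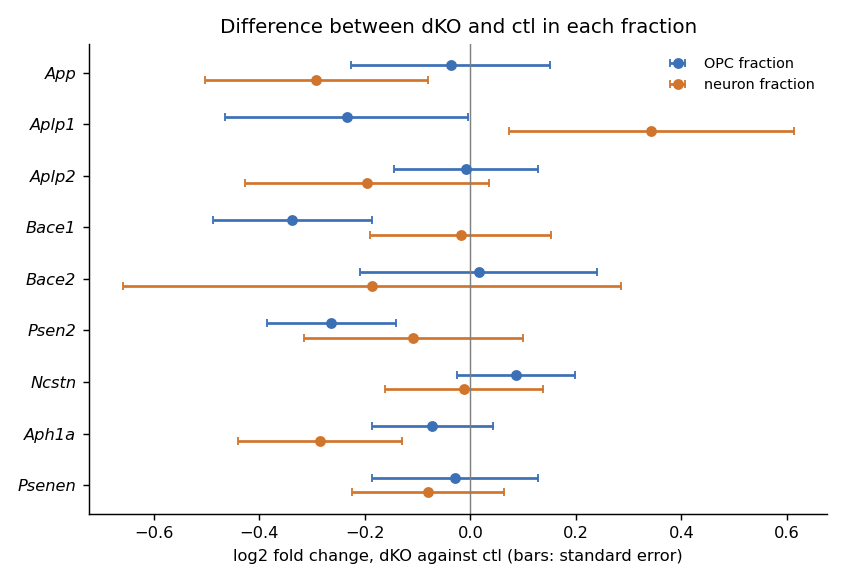
Points are log2 fold changes of dKO against ctl and bars are standard errors, for the OPC fraction (blue) and the neuron fraction (orange). The values run from -0.34 (Bace1) to 0.09 (Ncstn) in OPC and from -0.29 (App) to 0.34 (Aplp1) in neuron libraries, and none passed the test.

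Ratios of 2 members within a library do not depend on how the library is scaled, and 6 of them were compared in each fraction by exact permutation tests (two-sided, 3 against 3). The ratio of Psen2 to Ncstn in OPC libraries was 0.321, 0.349 and 0.333 in ctl and 0.252, 0.270 and 0.263 in dKO libraries. The groups did not overlap, the difference was -0.35 on the log2 scale against SDs of 0.06 and 0.05 within the groups, and the exact permutation p was 0.1, the smallest possible (adjusted p = 0.6 over the 6 ratios). Without each library in turn this difference ranged from -0.38 to -0.32. The microglia sum of the same libraries was 264 to 328 CPM in ctl and 334 to 1145 CPM in dKO, without overlap, and the astrocyte sum 1212 to 2079 and 1851 to 5595 CPM, and their part in this ratio was not tested. The remaining OPC ratios, Aplp1 to App, Aplp2 to App, Bace2 to Bace1, Aph1a to Ncstn and Psenen to Ncstn, had exact permutation p of 0.3 to 0.8. In the neuron fraction 0 of 6 ratios had groups that did not overlap (2 without dKO replicate 1). The ratio of Aplp1 to App was 0.105, 0.0932 and 0.0554 in ctl and 0.234, 0.103 and 0.0961 in dKO libraries (exact permutation p = 0.3, adjusted p = 0.9), with dKO replicate 1 far above the others. Its log2 difference of 0.70 was 0.29 without dKO replicate 1 and 0.42 without ctl replicate 3. The ratio of Aplp2 to App stayed between 0.712 and 0.855 in all 6 neuron libraries and between 0.309 and 0.373 in all 6 OPC libraries. Ncstn shares part of its span with Copa on the opposite strand, whose mean OPC count was 275% of that of Ncstn, Aph1a with Car14 (178%), Psen2 with Gm31728 (6.06%), Psenen with Gm49396 (7.01%), and Bace1 with Rnf214 (23.3%), Gm16536 (7.14%) and Gm49338 (4.96%). Since whether the counting used strand is not given in the sources used here, reads where such genes overlap cannot be told apart.

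The genes most like App, Aplp1 and Bace2 in their pattern over the 6 libraries of a fraction were taken as the 3 with the highest Pearson correlation of log2 CPM, as a description over 6 libraries that share depth and sorting. For App these were Eif3c, Clhc1 and Git1 in the OPC fraction (r = 0.979 to 0.977) and Rell1, Icam2 and Tmco4 in the neuron fraction (r = 0.998 to 0.996). Icam2 is an adhesion molecule of endothelial and blood cells. For Aplp1 they were Ado, Bcar1 and Rhog in OPC (r = 0.997 to 0.995) and Dnaaf4, Btbd17 and Ciapin1 in neuron libraries (r = 0.996 to 0.994). For Bace2 they were Armh1, Nr4a2 and Rhbdl1 in OPC (r = 0.983 to 0.980) and Lama5, Rap2c and Gxylt2 in neuron libraries (r = 0.984 to 0.983). With 17364 and 14352 genes compared over 6 points, no p is given for these correlations. On the genome 8 of the 9 genes share a chromosome with 1 other, Aph1a on chromosome 3 being the exception, with Aplp1 and Psenen 116 kb apart on chromosome 7, App and Bace2 12.2 Mb apart on chromosome 16, Aplp2 and Bace1 14.6 Mb apart on chromosome 9, and Psen2 and Ncstn 8.14 Mb apart on chromosome 1 (positions of the OPC table). Aplp1 and Psenen, the closest pair, had log2 fold changes of -0.23 and -0.03 in OPC and 0.34 and -0.08 in neuron libraries.

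The wider pathway was read from 10 lists of 114 genes in all: other gamma-secretase genes, alpha-secretases and like sheddases, gamma-secretase partners, adaptors of the App tail, trafficking genes, inhibitors, amyloid-beta degrading enzymes, amyloid-beta receptors, and substrates of Bace1 and of gamma-secretase. Of these, 107 were tested in OPC libraries, 0 had an adjusted p under 0.05 in edgeR (3 in DESeq2), and 18 had an unadjusted p under 0.05, 9 higher and 9 lower in dKO. That is 16.8% of those tested, beside the 11.5% of all genes, and the count was 9 without ctl replicate 2 or ctl replicate 3, where that of all genes went from 2003 to 1106 and 1591. The groups did not overlap for 18 of the 107, again 16.8%, beside 16.4% of all genes. Their median log2 fold change was 0.05. In the neuron fraction 106 were tested, 0 had an adjusted p under 0.05 in either tool, and 12 had an unadjusted p under 0.05 (7 higher and 5 lower), 11.3% beside 9.0% of all genes, with a median of 0.01. The count was 6 without ctl replicate 1, where that of all genes went from 1292 to 780, and 19 with DESeq2, where that of all genes was 1538. The groups did not overlap for 25 of the 106, 12 higher and 13 lower, 23.6% beside 15.3% of all genes.

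By list, the inhibitors had a median log2 fold change of 0.40 in the OPC fraction and -0.39 in the neuron fraction over the same 7 genes, of which 1 (Cst3) was at an unadjusted p under 0.05 in OPC and 2 (Reck and Itm2b) in neuron libraries. That is 14.3% beside 11.5% of all genes in OPC and 28.6% beside 9.0% in neuron libraries. Groups did not overlap for 1 of the 7 in OPC (Cst3, higher), 14.3% beside 16.4% of all genes, and for 3 of the 7 in neuron libraries (Itm2a, Itm2b and Reck, all lower), 42.9% beside 15.3%. The last 3 were lowest in dKO replicate 1, where the endothelial sum was lowest (10661 CPM), and that sum was lower in dKO without overlap. The OPC microglia sum was 264 to 328 CPM in ctl and 334 to 1145 CPM in dKO, and the astrocyte sum 1212 to 2079 and 1851 to 5595 CPM. The part of these cells in the medians was not tested. The Bace1 substrates had medians of 0.37 over 14 genes and 0.36 over 15 genes, with 3 genes at an unadjusted p under 0.05 in OPC (Pcdh20 and Vcam1 higher, Scn4b lower) and 2 in neuron libraries (Sez6 higher, Vcam1 lower). That is 21.4% and 13.3%, beside 11.5% and 9.0% of all genes. The neuron marker sum was also higher in dKO neuron libraries without overlap (778 to 1075 against 1088 to 1792 CPM), and its part in that median was not tested. The 4 alpha-secretases and like sheddases tested had medians of -0.02 and -0.16, and the 3 other gamma-secretase genes -0.15 and 0.07. In neuron libraries 1 gene of each of these 2 lists had an unadjusted p under 0.05 (Mmp14 and Aph1c, both higher). That is 25% and 33.3%, beside 9.0% of all genes, and 0 did in OPC. Of the 22 trafficking genes, 4 had an unadjusted p under 0.05 in OPC, of which 1 was higher and 3 lower, and 2 in neuron libraries. That is 18.2% and 9.09%, beside 11.5% and 9.0% of all genes. Of the 17 tail adaptors, 3 were lower at that threshold in OPC (Numbl, Apbb2 and Appbp2) and 2 were higher in neuron libraries (Apbb1 and Apba2). These were 17.6% and 11.8%, beside the same 11.5% and 9.0% of all genes. Groups did not overlap for 6 of the 22 trafficking genes in OPC and 4 in neuron libraries (27.3% and 18.2%). For the tail adaptors this held for 3 of the 17 in OPC and 5 in neuron libraries (17.6% and 29.4%). Over all genes these shares were 16.4% in OPC and 15.3% in neuron libraries.

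Among the 7 gamma-secretase modulators and partners, groups did not overlap for 3 in OPC (Gsap, Tmed10 and Tspan12, all higher). In neuron libraries groups did not overlap for 3 others (Bsg, Erp44 and Rer1, all lower). That is 42.9% in each fraction, beside 16.4% of all genes in OPC and 15.3% in neuron libraries. Gsap and Tspan12 had an unadjusted p under 0.05 in OPC, 28.6% of the list beside 11.5% of all genes. In neuron libraries 0 of 7 did, beside 9.0% of all genes. The medians were 0.09 in OPC and -0.22 in neuron libraries. Of the 10 amyloid-beta degrading enzymes tested, groups did not overlap for 1 in OPC (Ctsb, higher), 10% beside 16.4% of all genes. In neuron libraries groups did not overlap for 4 (Ace, Mmp2 and Thop1 higher, Mme lower), 40% beside 15.3% of all genes. Of the 10, Ace had an unadjusted p under 0.05 in neuron libraries, 10% beside 9.0% of all genes, and 0 did in OPC. The medians were 0.10 in OPC and -0.02 in neuron libraries. Of the 6 amyloid-beta receptors and transport genes tested in neuron libraries, 2 were without overlap (Abcb1a and Prnp, both lower), 33.3% beside 15.3% of all genes. Of the 16 gamma-secretase substrates, 1 (Cspg4, lower) had an unadjusted p under 0.05 in neuron libraries, 6.25% beside 9.0% of all genes. Their groups did not overlap for 3 genes in OPC and 1 in neuron libraries (18.8% and 6.25%, beside 16.4% and 15.3% of all genes). Bsg, Erp44, Rer1, Abcb1a and Prnp were lowest in dKO replicate 1, the neuron library with the lowest endothelial sum, and the part of cell makeup in the counts of these 4 lists was not tested.

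The pathway genes with the smallest p in the OPC fraction were Cst3, Numbl and Csf1r. Cst3 encodes cystatin C, a secreted protease inhibitor that binds amyloid-beta. Its normalized counts were 8559.8, 8694 and 10447 in ctl and 15174, 23620.4 and 17097 in dKO libraries, 1.99-fold higher without overlap, and did not pass in edgeR (log2 fold change 0.99 ± 0.20, SE, adjusted p = 0.246). Numbl, a relative of the endocytic adaptor Numb, had 411, 438 and 352 in ctl and 248, 263 and 202 in dKO libraries (-0.77 ± 0.16, adjusted p = 0.246). Csf1r, a receptor of microglia and a gamma-secretase substrate, had 1154, 1149 and 1328 in ctl and 3560.4, 1371 and 4890.2 in dKO libraries (1.41 ± 0.37, adjusted p = 0.292). The 12 microglia markers, Csf1r among them, summed to 264 to 328 CPM in ctl and 334 to 1145 CPM in dKO OPC libraries, again without overlap and again highest in dKO replicates 1 and 3, and the 10 astrocyte markers to 1212 to 2079 and 1851 to 5595 CPM, highest in dKO replicate 2, as was Cst3. Without dKO replicate 2 the log2 fold change of Cst3 was 0.77 and that of Csf1r was 1.77, and Csf1r then passed an adjusted p of 0.05. Their part in these values was not tested.

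The smallest p of the neuron pathway genes belonged to Ace, Mmp14 and Apbb1. Ace, a peptidase that can degrade amyloid-beta, had normalized counts of 404, 459 and 303 in ctl and 763, 517 and 805 in dKO libraries (log2 fold change 0.84 ± 0.22, SE, adjusted p = 0.521). Mmp14, a membrane metalloprotease, had 288, 387 and 335 against 544, 487 and 514 (0.62 ± 0.17, adjusted p = 0.521). Apbb1, also known as Fe65, which binds the cytoplasmic tail of App, had 991, 1131 and 942 against 1735, 1469 and 1204 (0.53 ± 0.17, adjusted p = 0.521). The groups did not overlap for any of these 3 genes, and none passed the test. Apbb1 was highest in dKO replicate 1, as was the neuron marker sum, and its log2 fold change was 0.39 without that library. Those of Ace and Mmp14 were then 0.76 and 0.57. The choroid plexus sum was 9641, 8965 and 4848 CPM in ctl and 32099, 8896 and 15212 CPM in dKO libraries, lowest in the same ctl and the same dKO library as Ace but highest in others (ctl replicate 1 and dKO replicate 1, against ctl replicate 2 and dKO replicate 3 for Ace). The part of cell makeup in these values was not tested.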

How the data were processed

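Expression values of 12 libraries were analysed. The OPC table that the authors deposited holds raw counts and FPKM by Ensembl gene. Their methods state HISAT2, GRCm38 and featureCounts, whereas the labels name mm39, and gene positions are given as in that table. For neurons, the authors deposited estimated counts and TPM per RefSeq transcript. How these were made is not given in the sources used here. Estimated counts were summed per Entrez gene (17794 of 17918 matched to symbols) and rounded. The 18 other per-sample columns and the deposited fold changes and p-values of the authors' own comparison were not used.

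Columns were assigned to samples by their names. The dKO and ctl libraries were compared within each table by edgeR 4.0.16 (quasi-likelihood test, R 4.3.3) for genes that averaged 10 or more TMM-normalized counts, with Benjamini-Hochberg adjustment over all genes tested and 0.05 as the threshold. Each SE is |log2 fold change|/√F. DESeq2 1.42.0 served as an alternative, beside other normalizations, filters, a replicate term and each library left out. Shares and ratios were compared with exact permutation tests. Correlations used log2(CPM + 1). No test was run between cell types. Libraries of a group pool different mice by the methods, and no libraries of a group were alike within sampling noise (chi-square per gene of at least 15.9). The fit was tested on simulated data with 200 changed genes.

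The 9 genes, the pathway and marker lists and the tests were chosen with earlier results of these data known. Text names all 9 genes, the 3 pathway genes with the smallest p in each table when none passes, transcripts of App and Aplp2 of at least 5% share, and the 3 genes most alike to App, Aplp1 and Bace2. Other pathway genes at an unadjusted p under 0.05 or without overlap of the groups, Adam10, and the genes that overlap members were named after their values were seen or as background. Exon sequences came from GENCODE M21 (GRCm38). Depth limited Bace2 in neurons most (34.3 normalized counts in its lowest library).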

Additional observations from a re-analysis of the deposited data

Results flagged for a closer look

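Numbl, an adaptor of endocytosis related to Numb, had log2 fold changes of opposite sign in the fractions, with every dKO library below every ctl library in the OPC fraction and above every ctl library in the neuron fraction. Its log2 fold change was -0.77 ± 0.16 (SE) in the OPC fraction, from normalized counts of 352 to 438 in ctl and 202 to 263 in dKO, and 0.65 ± 0.29 in the neuron fraction, from 75.0 to 83.0 in ctl and 98.1 to 143 in dKO. Neither passed an adjusted p of 0.05 in edgeR (0.246 and 0.557), and the OPC value passed it in DESeq2 (unadjusted p = 3.54e-05). The difference between the fractions was not tested, since the tables were counted in different ways. In the neuron fraction the neuron marker sum was 778 to 1075 CPM in ctl and 1088 to 1792 CPM in dKO, and the endothelial sum 20265 to 21782 and 10661 to 18379 CPM, both without overlap. In the OPC fraction the microglia sum was 264 to 328 CPM in ctl and 334 to 1145 CPM in dKO, also without overlap. Their part in the Numbl values was not tested.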

How the results depend on the processing

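The count of the 9 genes at an adjusted p under 0.05 was 0 in both fractions under every alternative run: DESeq2, 2 other normalizations, 2 other filters, a replicate block and each library left out. At an unadjusted p under 0.05 the OPC count was 0 to 2 without each library. Over all OPC genes the count of 1 became 293 with DESeq2, 87 with no filter on low counts, 27 with the replicate block and 1 to 199 without each library in turn, the 199 without dKO replicate 2 (2 without dKO replicate 3). Over all neuron genes the count of 0 became 88 with DESeq2. Of the OPC pathway genes 0 passed, against 3 with DESeq2 (Cst3, Numbl and Csf1r), 2 with no filter (Cst3 and Csf1r) and 0 to 1 without each library. The cause of these differences was not tested. Ratios with groups that did not overlap numbered 1 to 3 in OPC and 0 to 2 in neuron libraries without each library.

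Among OPC log2 fold changes the sign of Aplp2 turned with no filter (0.017). Without each library the ranges that crossed 0 were -0.15 to 0.026 for App, -0.057 to 0.040 for Aplp2, -0.11 to 0.22 for Bace2, -0.19 to 0.095 for Psenen and -0.26 to 0.31 for Ace. The log2 ratio differences were -0.040 to 0.092 for Aplp2 to App and -0.29 to 0.055 for Psenen to Ncstn. In neuron libraries Ncstn turned to 0.0019 with upper-quartile normalization. Without each library the ranges were -0.36 to 0.030 for Aplp2, -0.11 to 0.043 for Bace1, -0.55 to 0.13 for Bace2, -0.21 to 0.071 for Psen2, -0.079 to 0.11 for Ncstn, -0.16 to 0.015 for Psenen, -0.66 to 0.026 for Cst3 and -1.19 to 0.022 for Csf1r. The neuron log2 ratio differences were -0.59 to 0.34 for Bace2 to Bace1, -0.19 to 0.10 for Psen2 to Ncstn and -0.28 to 0.11 for Psenen to Ncstn. The App share differences, in percentage points, were -0.11 to 3.43 for the 751-residue form, -2.82 to 0.087 for the 752-residue form and -0.61 to 5.90 for the 695-residue form, and the log2 fold change of the 751-residue transcript was -0.33 to 0.32. None of these results had passed a threshold.

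With the replicate number as a block, 0 of the 9 genes passed in either fraction, and 27 OPC and 0 neuron genes passed over all genes. Same-numbered ctl and dKO libraries correlated in their deviations by -0.11, 0.15 and 0.11 in OPC and 0.17, -0.08 and -0.08 in neuron libraries, so that the numbers were not taken as pairs, and not every library correlated best with its own number. Neuron levels per length of the RefSeq gene table were not run, since that table gives spans with introns, and GENCODE transcript lengths, chosen after seeing the data, kept the order of all 9 genes. Depth limits Bace2 most, with as few as 34.3 normalized counts in a neuron library.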
